A study of Mus musculus with 80 samples.

Results

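The genes described here are 10 genes of the intestinal epithelium (Car1, Agr2, Zg16, Muc2, Fcgbp, Tff3, Clca1, Guca2a, Lgals4 and Slc26a3), out of 21938 protein-coding genes of GENCODE M21, read in RXR ChIP-Seq libraries of mouse liver. They were chosen by name with the exonic peaks of these same libraries already known, so their peak counts and fold enrichments are given as a description and without a test. Every deposited peak that overlapped the body of a member by at least 1 bp was taken. The libraries came from 40 livers of male mice, 5 in each of 8 groups, aged 5 months and kept for 12 weeks on their diet. The 4 treatments were a control diet (Control), the control diet with pioglitazone (Pio), a high fat diet (HFD) and that diet with pioglitazone (HFD-Pio). Each was given to WT C57BL6/J mice, which carried neither loxP nor Cre, and to mice with a liver-specific knockout of PPARγ (KO). In the KO mice a PPARγ-loxP allele was recombined by Cre under the albumin promoter, which acts in hepatocytes. Pioglitazone is a drug that activates PPARγ, a nuclear receptor that binds DNA as a heterodimer with RXR.

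The epithelium of the gut is made of absorptive cells and of secretory cells, among them the goblet cells that build the mucus layer. Muc2 encodes the gel-forming mucin of that layer, and Fcgbp, Zg16, Clca1 and Tff3 encode proteins secreted with it. Agr2 encodes a disulfide isomerase of the endoplasmic reticulum that goblet cells need to fold mucin. Slc26a3 and Car1 are genes of surface colonocytes and encode a chloride and bicarbonate exchanger and a carbonic anhydrase. Guca2a encodes guanylin, a peptide that stimulates fluid secretion, and Lgals4 encodes galectin-4, a sugar-binding protein of the gut lining. None of these genes is a usual marker of hepatocytes.

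After duplicate removal the WT libraries held 2035170 to 4256749 tags and the KO libraries 627698 to 1057899. Peaks had been called at a p cutoff of 0.001 in WT and at a q cutoff of 0.05 in KO, so that genotype, depth and cutoff cannot be told apart. The fragment length estimated by the peak caller was 45 to 48 bp in 6 of the 10 pioglitazone-treated WT libraries (replicates 2, 3 and 5 of WT Pio and 1, 4 and 5 of WT HFD-Pio). It was 169 to 263 bp in the other 4 treated WT libraries and 183 to 292 bp in the 10 untreated ones. For 15 KO samples (Pio, HFD and HFD-Pio) the labels name no antibody although the titles name RXR. Exonic peaks were also counted for 12 hepatocyte genes such as Alb and Apoa1. They lay in 0 of the 12 genes in each treated WT library, in 7 in replicate 5 of WT Control, in 0 in the other 9 untreated WT libraries and in 1 or 2 in each KO library. RXR peaks do not measure which genes a tissue expresses, so these counts cannot test the liver label. A peak list of a whole liver does not show in which cells the tags arose, so more cells of a type and more tags per cell cannot be told apart.

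Exonic peaks of the members were a feature of the treated WT livers. In WT Pio, 6, 8, 8, 1 and 6 of the 10 genes had an exonic peak in replicates 1 to 5 (mean 5.8 ± 2.86, SD, n = 5). In WT HFD-Pio the numbers were 8, 2, 3, 8 and 6 (mean 5.4 ± 2.79, SD, n = 5). Untreated WT livers had none, apart from 1 gene (Fcgbp) in replicate 2 of WT Control. The 20 KO livers had none, apart from 1 gene (Muc2) in replicate 5 of KO HFD-Pio. The treated and untreated WT groups overlapped at a single value, 1 gene. In all, 176 peaks lay in the gene bodies, of which 160 touched an exon and 16 lay in introns. Of the exonic ones, 158 came from treated WT, 1 from untreated WT and 1 from KO livers. A −log10 q of at least 5 was reached by 99 of the 158. The KO peaks had been called at another cutoff, as given above.

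**Figure D1:**
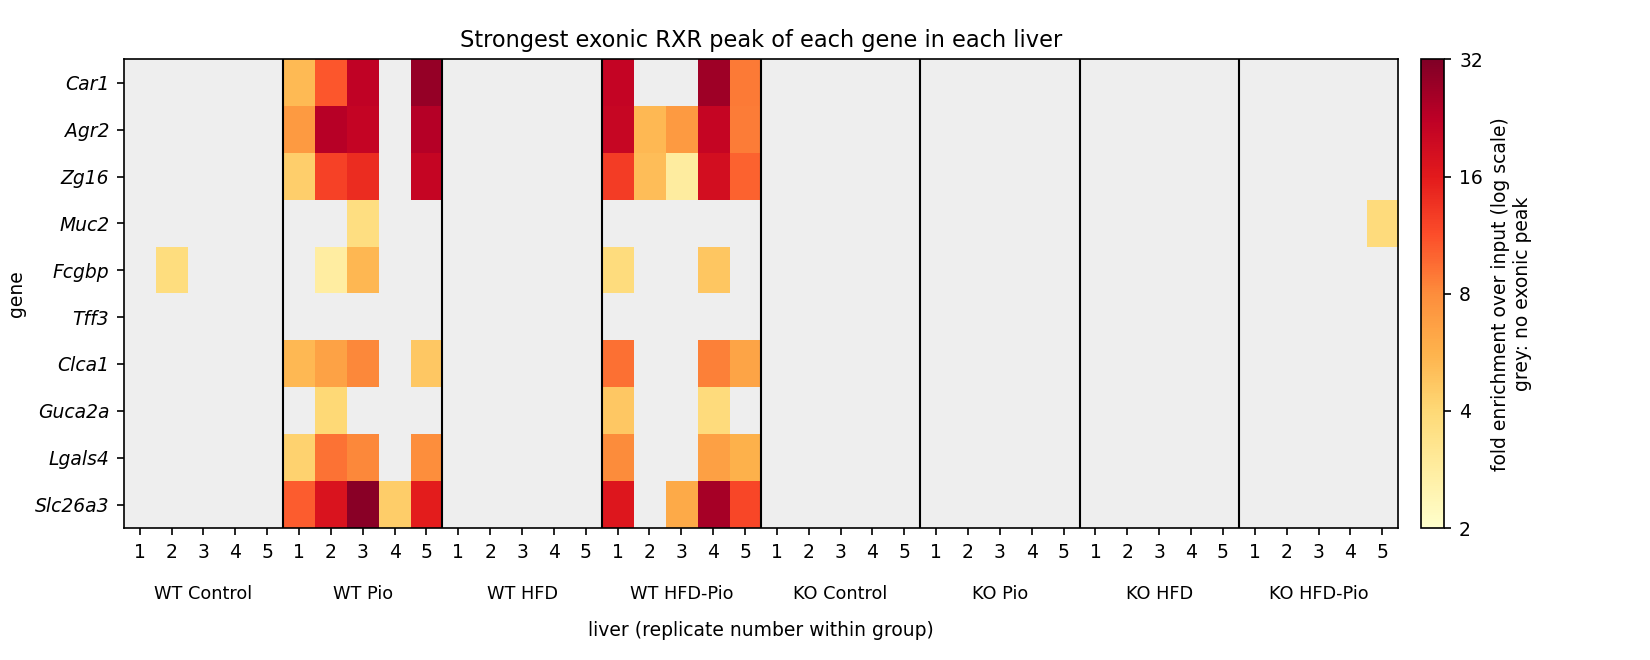
Fold enrichment over input of the strongest exonic peak (colour, log scale) for the 10 genes (rows) in the 40 livers (columns, replicate number within each group), with grey where no exonic peak was called. Colour fills the WT Pio and WT HFD-Pio columns, least so in replicate 4 of WT Pio with 1 gene, while the other groups hold 1 coloured cell in WT Control and 1 in KO HFD-Pio.

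A gene was counted as gained with Pio when an exonic peak was present in at least 3 of 5 livers with Pio and in 0 of 5 without. On control diet 6 of the 10 members were gained in WT (Car1, Agr2, Zg16, Clca1, Lgals4 and Slc26a3), where 30.7% of the 4419 genes with an exonic peak in either group were. The same 6 were gained on HFD, against a background of 22.7% of 3648 genes. Car1 counts here through exon 3, part of which has a second copy in the genome, as given below. Its exon 7, without a second copy, was called in 5 livers over both diets, too few for a gain on both. No member was lost on either diet, and the background of lost genes was 0.0% in both. Since the members were chosen with these peaks known, the counts are not read against the background. On HFD, Car1, Clca1 and Lgals4 were called in exactly the 3 livers with the short fragment estimate, so the count was 3 when replicate 1, 4 or 5 of WT HFD-Pio was left out. In KO livers no member was gained or lost. The background there was 2.05% gained and 0.216% lost on control diet, and 0.841% gained and 0.554% lost on HFD.

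The fragment estimate moved with the number of members called. The 6 libraries with the short estimate had 6 to 8 members, and the 4 other treated WT libraries had 6, 1, 2 and 3. Among the libraries over 50 bp, the treated ones thus had 1 to 6 members and the 10 untreated ones 0 or 1. The number of peaks moved too, with 11132 to 33705 peaks in the short-estimate libraries, 1905 to 6115 in the other treated ones and 579 to 12919 in the untreated ones. The part of either in the result was not tested.

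The exons that carried the peaks are shown for 3 members, as the place the peaks described further on are measured against. For each gene it is an exon without UTR bases that no other such exon of the gene exceeded in the number of livers called, printed on the gene's strand with exon bases in capitals and 20 intronic bases on each side in lower case (mm10, exons counted from the 5′ end of the gene over the merged coding transcripts). Agr2 exon 5 of 8 (chr12:35997403-35997516, plus strand) was called in 9 livers. Slc26a3 exon 18 of 23 (chr12:31465739-31465874, plus strand) was called in 8. Car1 exon 3 of 8 (chr3:14777709-14777946, minus strand) was called in 7.
Agr2 exon 5: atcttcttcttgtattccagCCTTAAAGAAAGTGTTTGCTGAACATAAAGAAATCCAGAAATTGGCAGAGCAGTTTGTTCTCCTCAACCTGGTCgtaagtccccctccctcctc
Slc26a3 exon 18: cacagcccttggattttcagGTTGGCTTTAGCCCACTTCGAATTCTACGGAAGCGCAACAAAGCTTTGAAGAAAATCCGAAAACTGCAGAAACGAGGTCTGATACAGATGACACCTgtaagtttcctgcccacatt
Car1 exon 3: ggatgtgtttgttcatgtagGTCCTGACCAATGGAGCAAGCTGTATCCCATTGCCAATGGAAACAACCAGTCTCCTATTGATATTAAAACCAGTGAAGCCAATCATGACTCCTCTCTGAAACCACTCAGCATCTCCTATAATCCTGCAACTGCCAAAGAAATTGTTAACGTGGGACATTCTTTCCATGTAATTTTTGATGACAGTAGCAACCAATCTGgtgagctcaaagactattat

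Among the colonocyte genes, Slc26a3 (chr12:31390871-31473917) was called in 9 of the 10 treated WT livers. Its strongest exonic peak reached 10.4, 17.3, 30.1, 4.45 and 15.8-fold over input in replicates 1 to 5 of WT Pio. In WT HFD-Pio it reached 16.7, 6.10, 25.7 and 11.9-fold in replicates 1, 3, 4 and 5, with no peak in replicate 2. The 30.1-fold peak was the highest value of any member, with 32 tags at its summit. The lowest value, in replicate 4 of WT Pio, had 8 tags and was the only exonic member peak of that liver. No untreated WT and no KO liver had an exonic peak in this gene.

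Car1 (chr3:14766216-14808368) was called in 7 treated WT livers. In WT Pio its values were 5.29, 10.7, 21.7 and 28.2-fold in replicates 1, 2, 3 and 5, and in WT HFD-Pio they were 21.04, 26.7 and 8.82-fold in replicates 1, 4 and 5. All 7 strongest peaks lay in exon 3. The 3 livers without one (replicate 4 of WT Pio and replicates 2 and 3 of WT HFD-Pio) were libraries with the longer fragment estimate.

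Of the genes of the secretory cells, Agr2 (chr12:35992907-36004087) was called in 9 treated WT livers. The values were 7.05, 23.3, 21.2 and 23.5-fold in replicates 1, 2, 3 and 5 of WT Pio. They were 20.6, 5.32, 7.05, 20.9 and 8.74-fold in replicates 1 to 5 of WT HFD-Pio. Replicate 4 of WT Pio again had no peak. The livers of the short estimate spanned 8.74 to 23.5-fold and the other 3 spanned 5.32 to 7.05-fold, so the ranges did not overlap, on a scale that also depends on how the caller extends the tags.

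Zg16 (chr7:127050156-127087328), which encodes a secreted lectin-like protein, was called in the same 9 livers. Its values were 4.41, 12.3, 14.1 and 20.9-fold in replicates 1, 2, 3 and 5 of WT Pio. In WT HFD-Pio they were 12.6, 5.11, 2.85, 18.5 and 10.1-fold in replicates 1 to 5. The 2.85-fold value, in replicate 3, had a −log10 q of 0.377 and would not have passed a q cutoff of 0.05. The same held for the strongest exonic peaks of Fcgbp and Guca2a in replicate 2 of WT Pio (−log10 q of 0.526 and 1.04). Some weaker exonic peaks of the members fell short of that cutoff as well.

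Clca1 (chr3:145003817-145032776), a secreted metalloprotease of mucus, was called in 7 treated WT livers, the same 7 as Car1. Its peaks were lower, at 5.32, 6.55, 8.20 and 4.69-fold in replicates 1, 2, 3 and 5 of WT Pio and at 9.38, 8.57 and 6.41-fold in replicates 1, 4 and 5 of WT HFD-Pio. They rested on 4 to 9 tags at the summit. Lgals4 (chr7:28833854-28841708) was called in these 7 livers too, at 4.25, 9.31, 8.23 and 7.84-fold in WT Pio and at 8.05, 6.72 and 5.67-fold in WT HFD-Pio, with 8 to 13 tags.

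The other 4 members had few or no peaks. Fcgbp (chr7:28071236-28120862) was called at 2.81 and 5.39-fold in replicates 2 and 3 of WT Pio and at 3.75 and 4.76-fold in replicates 1 and 4 of WT HFD-Pio. Guca2a (chr4:119637704-119639471) was called at 3.99-fold in replicate 2 of WT Pio and at 4.69 and 3.81-fold in replicates 1 and 4 of WT HFD-Pio. Muc2 (chr7:141690340-141754693), the mucin itself, was called in a single treated liver, replicate 3 of WT Pio, at 3.64-fold. Tff3 (chr17:31125306-31129646), a trefoil peptide gene, had no peak anywhere in its body in any of the 40 libraries. The peaks of Fcgbp, Guca2a and Muc2 rested on 2 to 5 tags at the summit, so small differences between these livers were not detectable at this depth. The Fcgbp peak of replicate 2 of WT Control (3.73-fold, 4 tags) shared 18 of its 211 bases with exon 13 and had its summit in the intron. The Muc2 peak of replicate 5 of KO HFD-Pio (3.80-fold, 3 tags) lay in exon 27 of 47.

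Of the 166 member peaks of treated WT livers, 158 (95.2%) touched an exon, and exons made up 8.28% of the bases of the 10 gene bodies. The members had been chosen with their exonic peaks known, so this share is a description. Over the bodies of all protein-coding genes, 45.2% of 63203 peaks touched an exon in treated WT livers, 6.78% of 12368 in untreated WT livers and 89.9% of 398258 in KO livers. Coding bases made up 90.8% of the exonic bases under these peaks. Slc26a3 alone gave 62 of the 158, with 10 in replicate 3 of WT Pio, 9 each in replicates 1 and 4 of WT HFD-Pio and 1 in replicate 4 of WT Pio. Of its 23 exons, 10 were called in at least 1 treated WT liver. Exons 18, 21 and 23 were called in 8 livers, exons 14, 15, 17 and 19 in 7, and exons 1 to 4 in none. In Clca1, exons 2, 6, 7, 8, 10 and 11 of 14 were called, exon 8 in 6 livers. In Agr2, exons 5 and 6 were each called in 9 livers and exon 2 in 7. Car1 was called in exons 3 and 7, Zg16 in exons 5 and 6, Lgals4 in exons 3 and 4 of 10, Fcgbp in exons 17 and 19 of 20, Guca2a in exon 3 of 3 and Muc2 in exon 47. Over the members, 29 of 142 exons were called in treated WT livers and 0 first exons were among them.

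**Figure D2:**
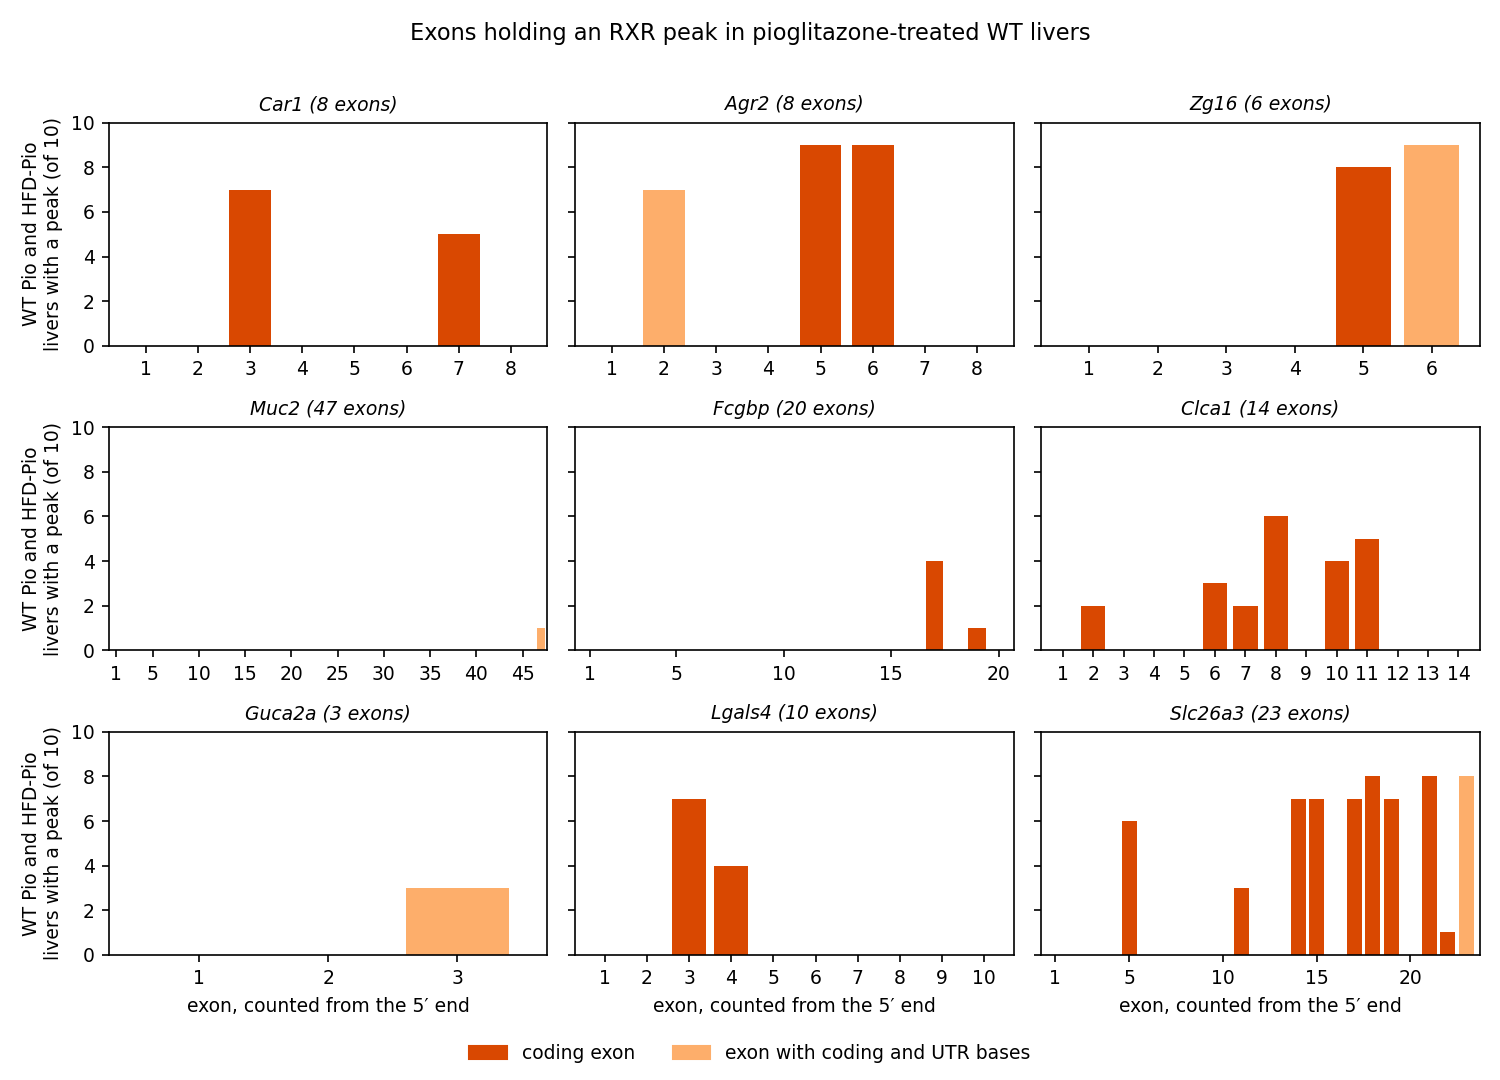
Number of pioglitazone-treated WT livers (WT Pio and WT HFD-Pio, of 10) with a peak in each exon, for the 9 members with a peak, with exons counted from the 5′ end. Agr2 exons 5 and 6 and Zg16 exon 6 reach 9 livers, Slc26a3 is called over 10 exons, and exon 1 is empty in every panel.

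Peaks in introns were few and weak. The 16 intronic peaks had a fold enrichment of 2.75 to 4.59, 8 of them in treated WT, 7 in untreated WT and 1 in KO livers. They lay in Fcgbp (5), Slc26a3 (4), Muc2 (3), Car1 (2) and Agr2 (2). Thus untreated WT livers had 7 intronic and 1 exonic peak in these genes, and treated ones had 8 and 158. Within 5 kb upstream of the members lay 19 peaks, of which 15 were upstream of Lgals4. All 15 touched exons of the neighbouring gene Ech1, which encodes an enzyme of fatty acid oxidation, and they came from 8 treated WT and 2 KO livers. The other 4 were single peaks near Zg16, Muc2, Tff3 and Guca2a.

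In the libraries with the short fragment estimate, the peaks took nearly the same place within an exon from liver to liver. There the 129 exonic member peaks were 45 to 144 bp long (median 62), 107 of them (82.9%) lay wholly within exons, and each of the other 22 held at most 13 intronic bases. For all protein-coding genes in these libraries, 88.9% of 25082 exonic peaks lay wholly within exons. In the sequences printed above, the 6 summits in Agr2 exon 5 lay at chr12:35997456-35997459. The 6 in Slc26a3 exon 18 lay at chr12:31465790-31465803 and those in Car1 exon 3 at chr3:14777885-14777895. Over the 19 member exons of at least 100 bp with a summit in at least 3 short-estimate libraries, the summits spanned 1 to 28 bp (median 6). The same measure over 2269 such exons of all protein-coding genes had a median of 24 bp, with median exon lengths of 198 and 171 bp. The 4 other treated WT libraries had 29 exonic member peaks of 175 to 372 bp (median 334), of which 1 lay wholly within an exon. Their summits were spread more widely at the printed Agr2 exon, at chr12:35997429, 35997451 and 35997503, the last of them outside the exon. In Slc26a3 exon 18 they lay at chr12:31465792 and 31465831, and in Car1 exon 3 at chr3:14777867.

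**Figure D3:**
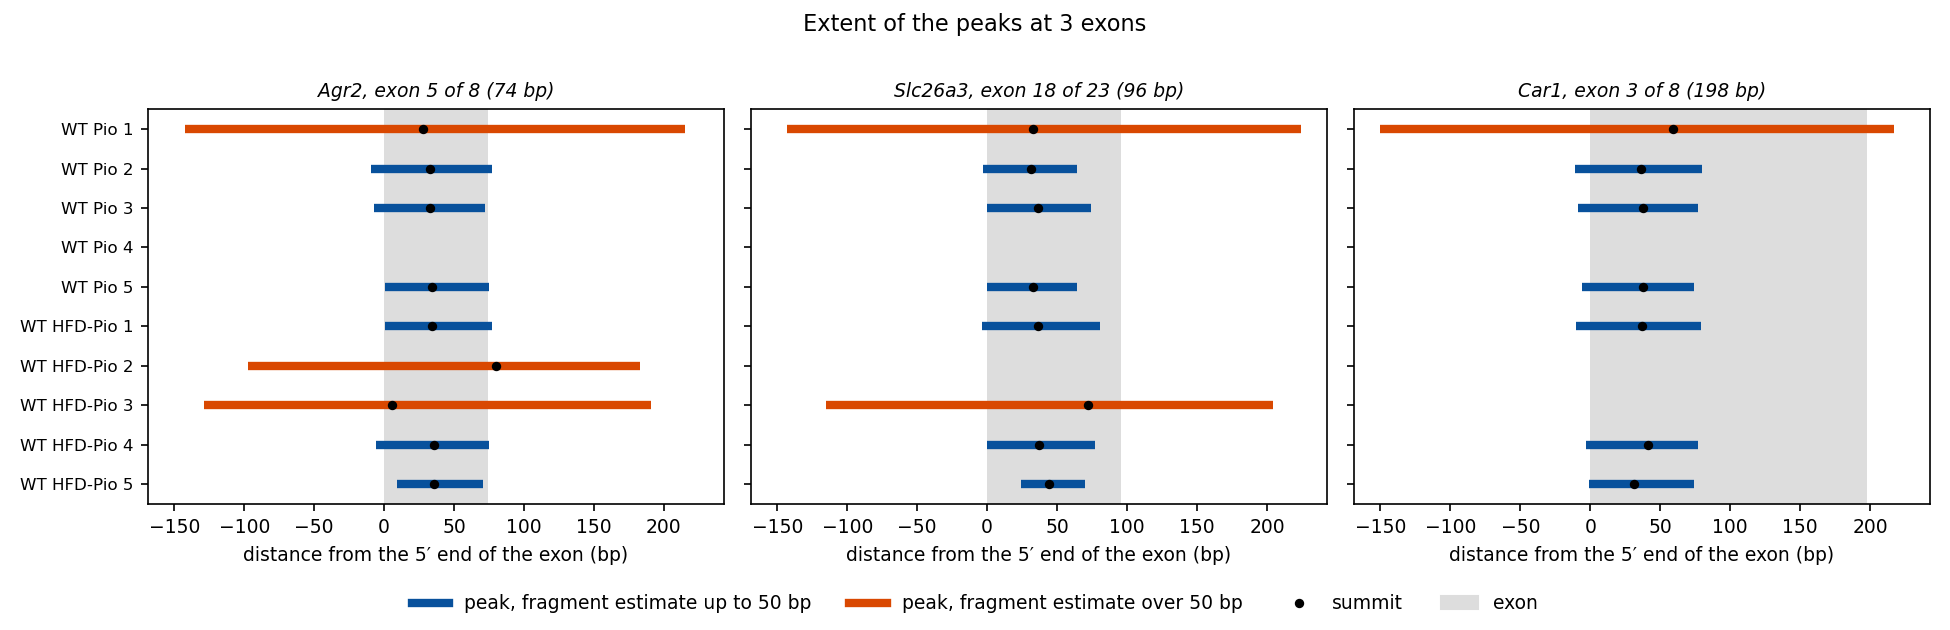
Extent of each deposited peak (bars) and its summit (black points) in the 10 pioglitazone-treated WT livers at 3 exons, as distance from the 5′ end of the exon in bp, with the exon shaded grey. Bars of the libraries with an estimate up to 50 bp (blue) hold at most 13 intronic bases and their summits lie close together, while those of the other libraries (orange) run past both bounds.

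How far the alignments were unique was checked by searching each window of 49 bases, the tag length, of the 29 called exons in chromosomes 1 to 19, X and Y of GRCm38. Of 4091 windows, 96.9% occurred once, and the figure was 100% for Slc26a3, Agr2, Zg16, Clca1, Lgals4, Guca2a and Muc2. In Car1 exon 3, 52 of 150 windows had a second copy in the unprocessed pseudogene Gm5843 (chr3:14722416-14729626), and 34 of the 81 windows that touched the span of the peaks were among them. Gm5843 itself had a peak at the copied exon in 8 treated WT livers and in no other library, at 3.76 to 17.8-fold (median 11.01). These included the 7 livers with a Car1 peak and replicate 2 of WT HFD-Pio. The Gm5843 peak of that replicate had a −log10 q of 0.799 and would not have passed a q cutoff of 0.05. How the aligner placed tags that fit both copies is not given in the sources used here, so the values of Car1 exon 3 and of Gm5843 are uncertain. Car1 exon 7, without a second copy, was called in 5 livers at 4.49 to 6.38-fold. In Fcgbp exon 19, 74 of 224 windows also occurred in the neighbouring gene 9530053A07Rik, none of them under the peak.

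RXR heterodimers bind repeats of the half-site AGGTCA, and PPARγ with RXR binds a pair of them 1 base apart. The half-site was searched on both strands within 100 bp of the summit, after peaks of the treated WT livers that overlapped had been joined. It was present in 6 of the 28 member regions (21.4%), in 11.5% of 10913 regions touching exons of protein-coding genes and in 8.39% of 81540 regions outside them. The spaced pair AGGTCANAGGTCA with at most 2 mismatches, which can contain the half-site, was present in 3 member regions (10.7%), in 2.14% of exonic regions and in 1.82% of the others. Among regions called in at least 3 livers, the half-site was in 4 of 24 member regions (16.7%) and in 12.4% of 3294 exonic ones. The pair was in 2 (8.33%) and in 2.16%. Of 2782 such regions outside exons, 11.5% had the half-site and 2.12% the pair. The 3 member regions with the pair were Slc26a3 exons 5 and 19 and Clca1 exon 7. None of the regions of the 3 exons printed above was among them or among the 6. Over regions called in at least 1 liver, the median GC content was 46.8% for members, 44.8% for exonic regions and 35.8% outside exons.

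Genes of the gut and of epithelia in general were read from a list of 65 markers. The list was drawn up with earlier results of these data known, so its counts and test results are a description. In WT Pio 12, 13, 19, 3 and 14 of the 65 had an exonic peak in replicates 1 to 5. In WT HFD-Pio the numbers were 15, 4, 5, 14 and 11. The untreated WT livers had 0 or 1 and the KO livers 0 to 4. By the rule given above, 11 of the 23 listed genes with an exonic peak in either group were gained in WT on control diet, where 30.7% of all such genes were. On HFD 10 of 18 were gained, against 22.7%. Most listed genes entered through the treated group, with 21 having a peak in WT Pio and 3 in WT Control. On HFD there were 18 in WT HFD-Pio and 0 in WT HFD. The gained genes are therefore not read against the background. Their counts were 2 and 2 when the peak lists were shortened to equal length. They were 7 and 4 when −log10 q of at least 5 was required. On HFD the count was 5, 5 or 6 without replicate 1, 4 or 5 of WT HFD-Pio. With both diets joined, the numbers of livers called among 10 treated and 10 untreated WT livers were compared for each gene by a two-sided Fisher's exact test with Benjamini-Hochberg adjustment. Of 5520 genes with a peak in at least 1 of the 20, 12.6% were called in more livers with Pio at an adjusted p below 0.05 and 0.0% in fewer, with 0 in fewer also at an unadjusted p below 0.05. Of the 65 listed genes, 23 could be tested, and 8 were called in more livers and 0 in fewer. The count was 12 without replicate 4 of WT Pio or without replicate 2 or 3 of WT HFD-Pio, 4 when −log10 q of at least 5 was required, and 2 (Itln1 and Cldn7) when the treated livers were limited to the 4 with the longer fragment estimate. In KO livers the same test called 0.0% of 10873 genes in either direction, with 89 at an unadjusted p below 0.05, and 10 of the listed genes could be tested. The members were not tested.

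The genes named here, apart from Krt18 and the biliary genes, were picked from the list by the number of treated WT livers called. The test uses that same number, so the adjusted p values are a description. Itln1, a lectin gene of goblet cells, had an exonic peak in 10 of 10 treated and 0 of 10 untreated WT livers, at 3.66 to 19.8-fold (Fisher's exact test, adjusted p = 0.000842). Cldn7, a tight junction gene of epithelia, had the same numbers of livers at 2.58 to 34.3-fold (Fisher's exact test, adjusted p = 0.000842). Krt8 and Krt19, keratins of simple epithelia, Slc26a2, a sulfate transporter, and Pigr, which carries antibodies across epithelia, were each called in 8 treated and 0 untreated livers (Fisher's exact test, adjusted p = 0.0103). Cdh17, an intestinal cadherin, was called in 7 and 0 (Fisher's exact test, adjusted p = 0.0246), as was the keratin Krt18, which the naming rule did not reach. Krt20, a keratin of surface colonocytes, was called in 7 treated livers and 1 untreated liver, which did not pass (Fisher's exact test, adjusted p = 0.109) but did without replicate 4 of WT Control (adjusted p = 0.0242), without replicate 4 of WT Pio (adjusted p = 0.0307) or without replicate 2 or 3 of WT HFD-Pio (adjusted p = 0.0303 and 0.0302). Krt8, Krt18 and Krt19 are also genes of bile ducts, and 3 of 4 biliary genes had a peak in at least 1 treated WT liver.

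The parts of the list differed. Of the 7 general epithelial genes, 1 to 6 were called in a treated WT liver, and of the 7 colonocyte genes 0 to 4. Of the 12 goblet cell genes 1 to 3 were called, with Itln1 in each liver, and of 13 enterocyte genes of the small intestine 0 to 2. The goblet cell gene Tpsg1 went the other way, with 0 treated and 0 untreated WT livers and 10 of 20 KO livers. Of 12 pan-intestinal genes 0 to 3 were called (Cdh17, Vil1 and Cdx2), and 9 were called in no treated WT liver. Of 5 enteroendocrine genes 0 to 2 were called, among them Cck, which was called in 1 treated WT liver, 1 untreated WT liver and 14 of 20 KO livers. Of 4 stem cell genes 0 or 1 was called, and the 5 Paneth cell genes were at 0 in all 40 libraries. Among lists of other tissues, 2 to 6 of 12 smooth muscle genes (Acta2 and Actg2 in 10 of 10) and 0 to 3 of 12 neural genes had exonic peaks in treated WT livers. In KO livers 3 to 10 smooth muscle genes and 9 to 12 neural genes had them. For exocrine pancreas the treated WT livers had 0 to 2 of 12 genes, and for stomach (9 genes) and lung (7 genes) they had 0. Of 4 biliary genes the treated WT livers had 0 to 3 and the KO livers 0 to 2. The stomach and lung lists were at 0 in the treated WT livers, where the members were called. The neural list was highest in the KO livers, where the members were not. The members were chosen with these peaks known, so this contrast is a description. The part of the smooth muscle, neural, pancreas and biliary genes in the result was not tested.

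**Figure D4:**
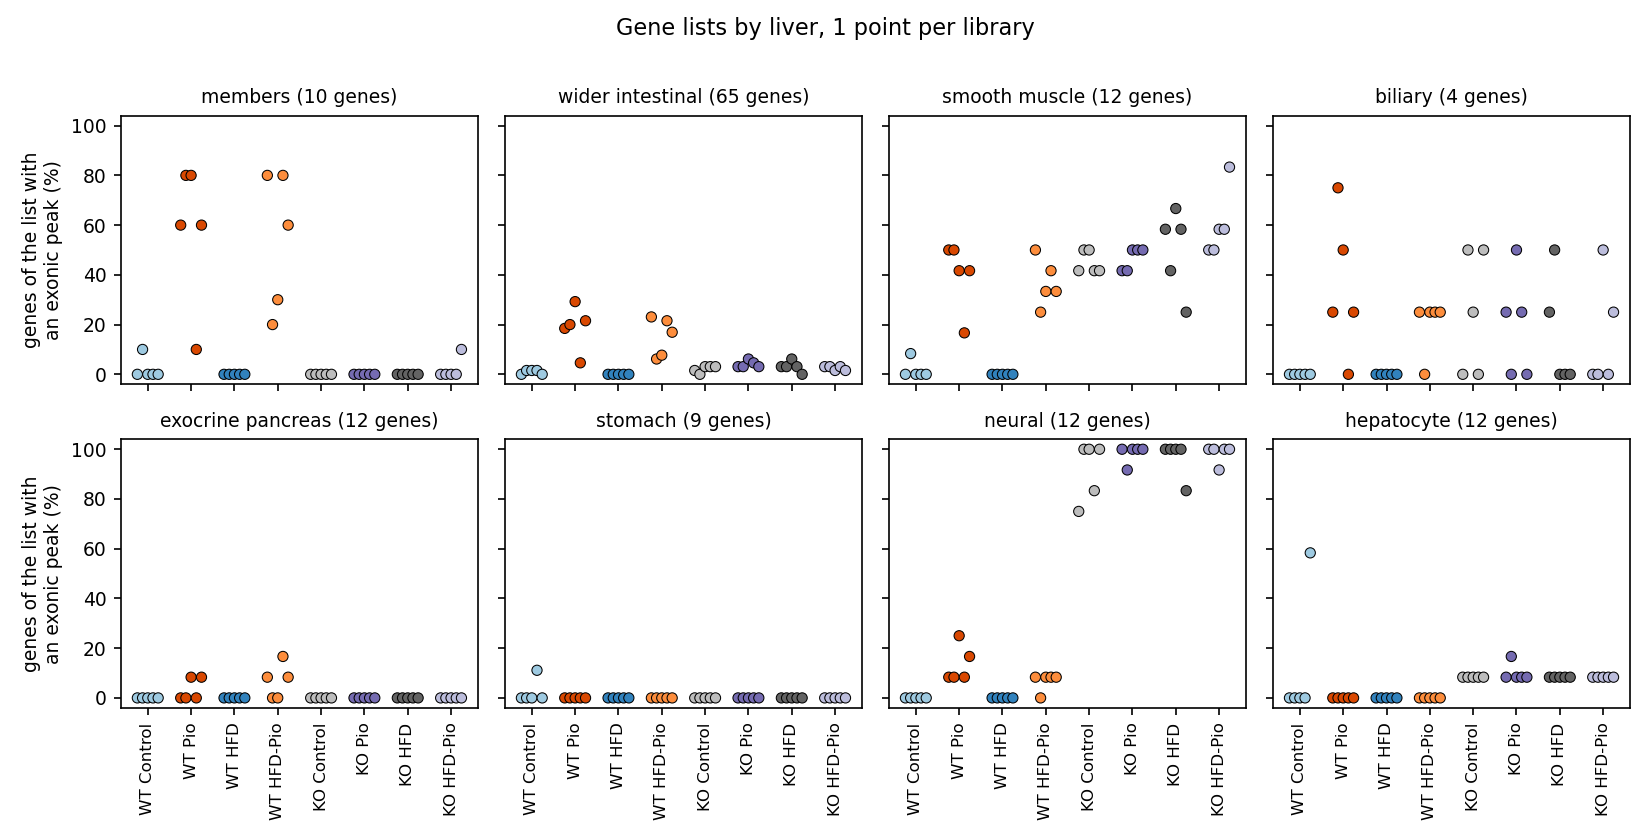
Share of the genes of 8 lists (percent) with an exonic peak in each of the 40 libraries, by group. The members reach 80% in 4 treated WT livers and the wider intestinal list stays under 30%, while the neural list is at 75 to 100% in KO livers and the stomach list is at 0 in all but 1 liver.

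How many genes of any kind had an exonic peak also differed between the livers. There were 236 to 3335 such genes in treated WT livers, 23 to 190 in untreated WT livers and 2635 to 6767 in KO livers. The KO livers thus had the most genes with an exonic peak and, with 1 exception, no member among them. Exonic peaks in at least 3 livers of both treated WT groups were found for 778 genes, 6 of them members. Of the 778, 680 (87.4%) also had an exonic peak in at least 1 KO liver and 528 (67.9%) in at least 10 of the 20. Neither an untreated WT nor a KO library had one for 92 of the 778, and the 6 members were among these 92. Since the members were chosen with these peaks known, their place in these counts is a description. The KO libraries also differed from the WT ones in depth and cutoff.

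**Figure D5:**
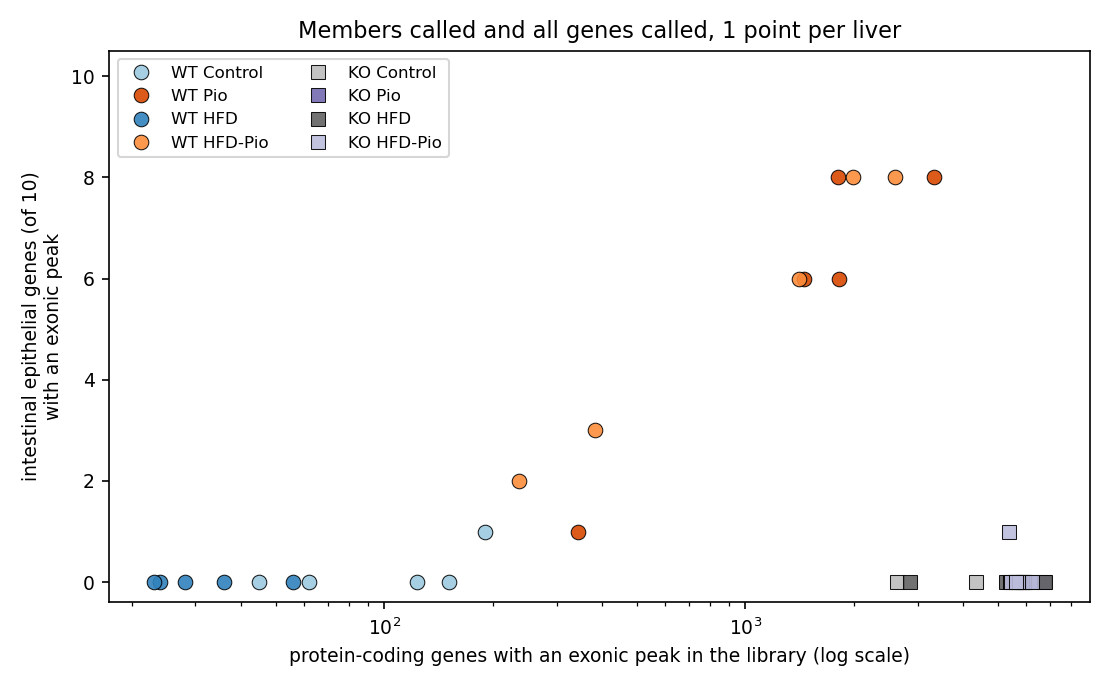
Members with an exonic peak (vertical axis, of 10) against all protein-coding genes with an exonic peak (horizontal axis, log scale), 1 point for each of the 40 livers. Treated WT livers lie between 236 and 3335 genes with 1 to 8 members, whereas KO livers lie between 2635 and 6767 genes with 0 or 1 member.

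The genes whose pattern was most like that of the members were found by correlating log2 fold enrichment over the 40 libraries, set to 0 without a peak, with the mean over the members. Besides members, Rab25 (r = 0.986), Ugt2b34 (r = 0.984), Fau (r = 0.982), Rps27a (r = 0.982) and Rps10 (r = 0.979) came first. Rab25 encodes a small GTPase of epithelial cells, Ugt2b34 a glucuronosyltransferase, and the other three encode ribosomal proteins or a fusion with one. Each had an exonic peak in 7 to 9 treated WT livers and in no untreated WT or KO liver. The 40 points share most of their zeros, the fragment estimate and the number of peaks, so r is a description only. Among the members r ran from 0.965 to 0.980 for the 6 gained genes, which also entered the mean, and was 0.734 for Fcgbp, 0.695 for Guca2a and 0.258 for Muc2.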

How the data were processed

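RXR ChIP-Seq peak lists of 40 livers were used, and the input samples entered through them. The authors aligned the reads to mm10 with Novoalign (version not given in the sources used here) and called peaks in each library against its input with MACS2 2.1.1.20160309, keeping 1 tag per position, at a p cutoff of 0.001 in WT and a q cutoff of 0.05 in KO per the file headers. The deposited fold enrichment is the ratio of ChIP to local background at the summit, the deposited pileup is a signal in tags, and the deposited −log10 p and −log10 q are the caller's. Peak lists hold no read counts, so the study's differential test was not repeated, and no counting interval was computed.

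Summits of 1 peak were merged, and peaks were placed on exons of protein-coding transcripts of GENCODE M21 by an overlap of at least 1 bp. Python 3.11.15, pandas 2.3.3 and scipy 1.17.1 were used, and the Fisher test was checked on simulated calls. There, unchanged genes had the same rate of calls in treated and untreated livers. The check therefore does not cover livers that differ in their number of genes called, as the treated and untreated WT livers did. Members and gene lists were chosen with earlier results of these data known. The text names the 10 members, up to 8 listed gut genes called in the most treated WT livers, the 5 genes closest in pattern and up to 4 exons, of which 3 are printed and 1 is not reported here. Genes counted as tested had an exonic peak in at least 1 liver of the comparison. Livers were separate animals and replicate numbers were not taken to pair them.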

Additional observations from a re-analysis of the deposited data

Results flagged for a closer look

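In 3 of 19 sets of 5 livers compared, 1 liver stood apart from the other 4, beyond Dixon's 95% limit. For normally distributed values chance exceeds that limit in about 1 of 20 sets. Many of the sets here were small counts with ties, and sets of equal values could not be flagged. The 3 of 19 is therefore not read against that rate. In WT Pio, replicate 4 had 1 member with an exonic peak and the other livers had 6 to 8. Its fragment estimate was 263 bp, its 1905 peaks were the fewest of the treated WT livers and 345 protein-coding genes had an exonic peak in it. In WT Control, replicate 2 had 1 member (Fcgbp, 3.73-fold, mostly intronic) and the others had 0. In KO HFD-Pio, replicate 5 had 1 member (Muc2, 3.80-fold) and the others had 0. The last 2 sets flag whenever a single liver differs from 0.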

How the results depend on the processing

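Of 681 alternative values of 44 results, 589 kept their side of the threshold or stayed within 1.5 times a count or 1 SD of a mean, 69 moved, 18 fell short of the threshold, 5 newly passed it and 0 reversed. Only peaks with −log10 q of at least 5 left 565 genes gained in WT on control diet, 204 on HFD, 7 and 4 of the wider list, 116 gained and 9 lost in KO on control diet, 48 and 34 on HFD, and 370 genes, 4 of them of the wider list, past the WT Fisher test. Requiring 4 of 5 livers left 309 genes, 3 members and 5 wider genes gained in WT on HFD, and 58 gained and 5 lost in KO on control diet and 15 and 7 on HFD. Peak lists of equal length left 241 and 131 genes and 2 and 2 wider genes gained in WT, with 4 and 4 members, and 57 gained and 53 lost in KO on control diet. In the libraries over 50 bp, 73 genes, 2 of them of the wider list, passed the WT Fisher test, and the mean number of members was 2.5 in WT HFD-Pio and 3.5 in WT Pio (means over these libraries were added after seeing the data).

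Leaving out each liver in turn gave 309 to 829 genes, 3 to 6 members and 5 to 10 wider genes gained in WT on HFD, the lower values without replicate 1, 4 or 5 of WT HFD-Pio. In KO it gave 94 to 335 gained and 8 to 50 lost on control diet, and 36 to 205 and 16 to 101 on HFD. The WT Fisher count ran from 696 to 1290, the highest values without replicate 4 of WT Pio (1287) or replicates 2, 3 or 5 of WT HFD-Pio (1290, 1286 and 1216), and that of the wider list from 8 to 12. On control diet it gave 930 to 1372 genes gained in WT. The cause was not tested.

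With replicate numbers as a block (sign test), 0 genes passed in WT and in KO (smallest adjusted p in WT 0.112 at a smallest possible p of 0.00195). Same-numbered livers were not paired by the labels, and their deviations had r of -0.0275 to 0.114 over 20 pairs, 1 of them over 0.1.

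Fcgbp, Guca2a and Muc2 had no peak with −log10 q of at least 5. The treated WT library with the fewest kept tags (2035170, replicate 4 of WT HFD-Pio) had 8 members and the one with the most (4256749, replicate 3) had 3. These 2 libraries also differed in fragment estimate (46 and 184 bp) and in peaks (11132 and 4818). Replicate 3 of WT Pio, with 4053290 kept tags, had 8 members. The part of depth was not tested.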
